A study of Homo sapiens with 12 samples.

Results

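The response of SNB19 to siRNAs against PARK2 was compared with that of SF539, gene by gene. SNB19 and SF539 are established glioblastoma cell lines, and PARK2 encodes parkin. All 12 of 12 arrays of the series were used, 2 in each of 6 groups: SNB19 with scramble siRNA, PARK2 siRNA1 or PARK2 siRNA2, and SF539 with the same 3 agents. All groups, the controls included, received a lipid transfection with Lipofectamine RNAiMAX and were collected after 48 h. SNB19 was kept in DMEM and SF539 in MEM, so the line and its medium cannot be told apart. The series holds no untransfected group among these arrays, so a difference between PARK2 siRNA and scramble can lie with either. Whether the paired arrays of a group are separate cultures is not stated, and p-values then reflect only the variation among these 12 samples, which can be technical. Knockdown was not checked in either line, since the PARK2 level was not analysed here. Each line stands for itself alone, and 2 lines give no spread between glioblastomas.

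For each gene the effect in a line was the mean log2 value with both PARK2 siRNAs minus the mean with scramble. The line difference was the effect in SF539 minus the effect in SNB19. A positive line difference therefore means that a gene rose more, or fell less, in SF539. A value was called when its limma p-value, adjusted by Benjamini-Hochberg over 8545 genes, was under 0.05. Fold changes and their standard errors (SE) are on the log2 scale, where 1 is a doubling. Each SE and p-value rests on 1 spread per gene shared by all 6 groups. Neither measures the spread of 1 line alone.

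Parkin is a ubiquitin ligase. Together with the kinase PINK1 it marks damaged mitochondria for removal by autophagy. Genes outside that pathway can respond in a cell transfected with small RNAs, among them the interferon-stimulated genes, which are switched on by signalling from the interferon receptors and defend against viruses. Genes induced by low oxygen are driven by hypoxia-inducible factors and supply glucose transport, glycolysis and blood vessel growth, and they are well known for their high expression in glioblastoma.

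Array medians lay between 5.94 and 6.14 and lower quartiles between 3.93 and 4.02, and values near the lower quartile have little signal over background. Across probe sets the SF539 siRNA2 pair correlated with r = 0.9902, the lowest of the 6 pairs, against up to 0.9981 elsewhere. The median SD between replicates was 0.132 for that pair and 0.0616 to 0.0852 in the other 5 groups, so the SF539 siRNA2 arrays stood apart in their spread. Leukocyte markers were near background on every array, with a mean level of 4.19 to 4.34 over 12 genes, and glial lineage genes averaged 7.32 to 8.40 on SNB19 arrays and 5.51 to 5.84 on SF539 arrays. The glial label was thus carried by more of its markers in SNB19, and 7 of 21 glial genes were below the lower quartile on all SF539 arrays. Precision is limited by having 2 arrays in a group.

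The promoters of 8 genes are shown first: 5 interferon-stimulated genes, the hypoxia-induced DDIT4 and BNIP3, and the glycolysis gene HK2. All 8 hold a match and genes without one are not shown, so they do not show how common the motifs are. The sequences are 100 bases lying before the gene's start, from RefSeq (GRCh38.p14), printed on the strand of the gene with the motif in capitals. For the interferon-stimulated response element the letters GAAA, any 2 bases and GAAA again were searched on both strands, and adjoining matches run together. IFI27, BST2, ISG15 and IFIT1 fell in SNB19 alone, and ISG20 fell in both lines.
IFI27 (chr14:94110596-94110695, plus strand): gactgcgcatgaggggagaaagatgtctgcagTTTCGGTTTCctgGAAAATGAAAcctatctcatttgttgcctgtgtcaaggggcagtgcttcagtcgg
BST2 (chr19:17405700-17405799, minus strand): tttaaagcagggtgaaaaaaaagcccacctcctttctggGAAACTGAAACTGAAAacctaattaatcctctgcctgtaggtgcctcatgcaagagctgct
ISG15 (chr1:1013345-1013444, plus strand): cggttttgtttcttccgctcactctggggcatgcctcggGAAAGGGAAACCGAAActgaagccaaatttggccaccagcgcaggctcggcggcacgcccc
IFIT1 (chr10:89392475-89392574, plus strand): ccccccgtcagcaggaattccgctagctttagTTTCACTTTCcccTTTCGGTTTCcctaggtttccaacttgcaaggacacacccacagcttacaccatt
ISG20 (chr15:88638902-88639001, plus strand): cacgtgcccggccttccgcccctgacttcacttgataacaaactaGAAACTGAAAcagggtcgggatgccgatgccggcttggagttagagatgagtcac

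For the hypoxia response element the letters ACGTGC were searched on both strands. The 3 genes shown fell in SNB19 and rose in SF539.
DDIT4 (chr10:72273752-72273851, plus strand): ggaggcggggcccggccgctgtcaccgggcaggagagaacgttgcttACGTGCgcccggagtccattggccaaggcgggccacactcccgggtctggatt
BNIP3 (chr10:131982004-131982103, minus strand): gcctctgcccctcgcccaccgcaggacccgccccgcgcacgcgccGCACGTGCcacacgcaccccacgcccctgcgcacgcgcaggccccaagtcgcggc
HK2 (chr2:74834027-74834126, plus strand): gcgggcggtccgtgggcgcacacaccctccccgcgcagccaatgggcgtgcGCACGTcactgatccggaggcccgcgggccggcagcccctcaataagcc

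Of the 8545 genes, 6831 were matched to a promoter, and the 250 bases before the start were searched in each. The first motif stood in 185 of these (2.71%), in 12 of 18 promoters of interferon-stimulated genes and in 24 of 81 promoters of genes with a positive line difference of at least 4-fold. Among genes with a negative one of that size it stood in 2 of 11 promoters (IL24 and SPARCL1). It stood in 12 of 136 promoters of genes that fell in both lines, and in 0 of 58 and 0 of 22 promoters of the genes that moved in opposite directions. ACGTGC stood in 446 of 6831 promoters (6.53%), in 4 of 14 promoters of hypoxia-induced genes, in 9 of the 58 promoters of genes that fell in SNB19 and rose in SF539, and in 1 of the 22 of the reverse kind. These are matches of letters in 1 window of each gene, given as a description.

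More genes were called in SNB19 than in SF539. In SNB19 2806 genes were called (32.8% of those tested, 15.5% up and 17.4% down) and in SF539 839 (9.82%, 5.8% up and 4.01% down). With array weights, where the SF539 siRNA2 arrays counted least (0.254 each), the calls were 3667 in SNB19 and 583 in SF539. The line difference itself was called for 1629 genes, 19.1% of those tested, positive for 920 (10.8%) and negative for 709 (8.3%). With siRNA1 it was called for 1107 genes (13.0%) and with siRNA2 for 1750 (20.5%). This order was reversed with array weights, at 1838 for siRNA1 and 1278 for siRNA2. With scramble alone the levels of the lines differed for 4212 genes (49.3%). The called line difference in response reached 2-fold for 457 genes, 4-fold for 124 and 8-fold for 45. Of the 124, 109 were positive and 15 negative. The SD of the effect over all genes was 0.57 in SNB19 and 0.30 in SF539, and across genes, which are not independent replicates, the effects in the 2 lines correlated with r = 0.222.

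Both lines were called for 477 genes, which were 17% of the genes called in SNB19 and 56.9% of those called in SF539. Of these, 373 moved together (4.37% of all genes tested, 212 or 2.48% up and 161 or 1.88% down) and 104 moved in opposite directions (1.22%). Among the 104, 77 (0.901%) fell in SNB19 and rose in SF539 and 27 did the reverse. Among the 373, the line difference was called for 125, with the larger effect in SNB19 for 113 and in SF539 for 12. It was not called for 248, and for 179 of these the 95% interval of the difference lay within 1.5-fold. The remaining line differences were called where the effect was called in SNB19 alone (1136 genes), in SF539 alone (177) or in neither line (87). Of the 1136, 87 (7.66%) were below the lower quartile on all SF539 arrays against 16.1% of all genes. Of the 177, 21 (11.9%) were below it on all SNB19 arrays, against 9.19% of genes called in SF539 alone without a called line difference. The shares of all genes, 16.1% in SF539 and 16.2% in SNB19, include genes called in neither line and are no like comparison. Genes low on only some arrays of a line are not counted here.

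These counts depended on single arrays. The line difference was called for 2686 genes without SF539 siRNA2 replicate 1, for 952 without SNB19 scramble replicate 1 and for 1071 without replicate 2. Genes that moved in opposite directions numbered 363 and 201 without SF539 siRNA2 replicate 1 and 2, 62 and 66 without SNB19 scramble replicate 1 and 2, 56 without SF539 scramble replicate 1, and 67 and 66 without SF539 siRNA1 replicate 1 and 2. In the same order of arrays, the genes that moved together numbered 844, 685, 240, 243, 178, 207 and 197, and 174 without SF539 scramble replicate 2. The effect in SF539 was called for 1973 and 1378 genes without siRNA2 replicate 1 and 2, 371 and 466 without scramble replicate 1 and 2, and 488 and 461 without siRNA1 replicate 1 and 2. The effect in SNB19 was called for 1741 genes without scramble replicate 1.

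Centring every array on its median moved the median line difference of all genes from -0.006 to -0.146. The positive share of calls was 56.5% as deposited and 32.2% after centring, and with quantile normalization it was 45.2%. The share of the opposite-moving genes that rose in SNB19 was 26.0%, 46.7% with centring and 36.8% with quantile normalization. The group results below are set beside all genes as deposited, with a median line difference of -0.01, 10.8% called positive and 8.3% negative. These shares move with the scaling as well, so setting results beside them does not remove its effect.

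**Figure D1:**
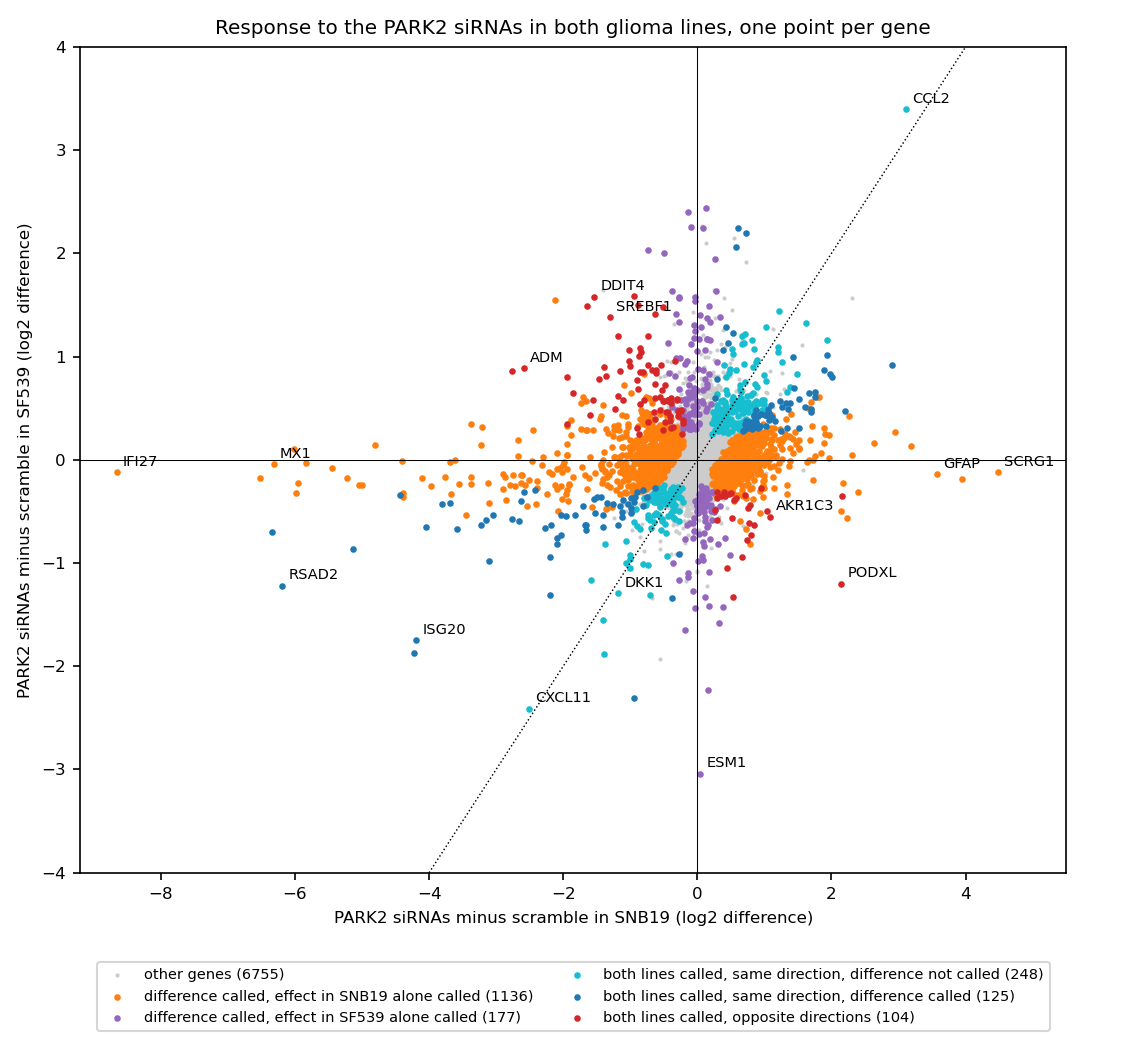
Each point is 1 gene, placed by its PARK2 siRNA effect in SNB19 (horizontal, log2 difference from scramble) and in SF539 (vertical), and coloured by the calls, with the dotted line marking equal effects. The points spread far along the horizontal axis, to -8.66 for IFI27, and the 104 genes called in both lines with opposite signs are marked in red.

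Interferon-stimulated genes fell in SNB19 by large amounts. In bulk RNA, fewer cells of a kind and less RNA per cell cannot be told apart. All 23 measured of 34 listed genes were called, 22 positive and 1 negative, beside 19.1% of all genes. Their median effect was -5.04 in SNB19 and -0.22 in SF539, and the median line difference was 4.79. In SNB19 22 of the 23 fell and 1 rose. In SF539 5 fell (ISG20, RSAD2, OASL, OAS1 and TRIM22) and none rose, beside 4.01% of all genes called lower there.

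IFI27, an interferon-induced protein of mitochondria and nuclear membrane, read 12.94 and 12.98 on the SNB19 scramble arrays. With siRNA1 it read 3.99 and 3.97, and with siRNA2 4.75 and 4.49. In SF539 it read 12.83 and 12.94 with scramble, 12.74 and 12.73 with siRNA1, and 12.76 and 12.84 with siRNA2. The lines were thus level with scramble, and only the PARK2 siRNA arrays of SNB19 were low. The effects were -8.66 ± 0.08 in SNB19 and -0.12 ± 0.08 in SF539 (adjusted p = 0.441), and the line difference was 8.54 ± 0.12 (adjusted p = 1.6e-10). The siRNA1 arrays of SNB19 were at their lower quartiles, so background limits the size of this fall and it may be understated.

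BST2, which tethers budding viruses to the cell surface, had the same pattern. It read 11.81 and 11.78 with scramble in SNB19, 5.34 and 5.10 with siRNA1 and 5.22 and 5.42 with siRNA2. All 6 SF539 arrays lay between 11.89 and 12.16. The line difference was 6.35 ± 0.14 (adjusted p = 4.46e-09).

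The other largest positive line differences belonged to the antiviral GTPase gene MX1 (6.28), IFITM1 (5.73), PSMB9 (5.65), an immunoproteasome subunit gene of the antigen presentation list, OAS1, an enzyme that activates RNase L (5.64), IFI44L (5.38) and the ubiquitin-like modifier gene ISG15 (5.04). MX1 had a mean of 10.94 with scramble in SNB19 and read 4.40 to 5.0 with the PARK2 siRNAs, against 12.42 to 12.78 on all SF539 arrays. ISG15 read 13.62 and 13.59 with scramble in SNB19 and 8.14 to 8.80 with the PARK2 siRNAs, against 12.77 to 13.07 in SF539. For both genes the PARK2 siRNA arrays of SNB19 overlapped with no other array. The IFITM genes are close paralogs, and how much of the IFITM1 signal is its own is uncertain.

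IFIT1, which binds foreign RNA, and IFIT3 were high with scramble in SNB19 alone. IFIT1 read 12.85 and 12.88 with scramble in SNB19, 6.55 and 6.53 with siRNA1 and 7.67 and 7.35 with siRNA2, but only 2.70 to 3.15 on the SF539 arrays. IFIT3 read 11.68 and 11.77 with scramble in SNB19 and 5.53 to 6.02 with the PARK2 siRNAs, and 4.55 to 4.76 in SF539. IFIT1 was at background in SF539, where a fall could not have been seen, and IFIT3 was low there. Their line differences were 5.81 ± 0.17 and 6.12 ± 0.14.

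The one negative member, named after its values were seen, was IRF7, a transcription factor of the interferon response, with a line difference of -1.24 (adjusted p = 0.00686). It rose by 0.64 in SNB19, and its effect in SF539 was -0.59 (adjusted p = 0.0607).

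A smaller set of interferon-linked genes fell in both lines. ISG20, an exonuclease that degrades viral RNA, read 9.76 and 9.73 with scramble in SNB19 and 5.47 to 5.64 with the PARK2 siRNAs. In SF539 it read 10.57 and 10.57 with scramble, 8.97 and 8.92 with siRNA1 and 8.65 and 8.73 with siRNA2. It fell by 4.19 in SNB19 and by 1.75 in SF539, and the line difference of 2.44 ± 0.09 was called (adjusted p = 1.19e-07). RSAD2, the antiviral enzyme viperin, fell by 6.19 and by 1.22, and with the PARK2 siRNAs it read 3.30 to 4.09 in SNB19, near background. CXCL10, a chemokine that attracts T cells, fell by 4.23 and by 1.87, and its call in SF539 was lost without SF539 scramble replicate 2 (adjusted p = 0.0684).

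CXCL11, a chemokine of the same receptor as CXCL10, fell in both lines. It read 5.68 and 5.41 with scramble in SNB19 and 2.92 to 3.11 with the PARK2 siRNAs, below the lower quartile, and in SF539 6.12 and 6.86 with scramble, 3.40 and 3.57 with siRNA1 and 4.13 and 5.23 with siRNA2. The effects were -2.51 ± 0.28 and -2.41 ± 0.28, with a line difference of 0.10 (95% interval -0.78 to 0.98). IFNB1, the gene of interferon beta, read 5.52 and 5.11 with scramble and 3.75 to 4.15 with the PARK2 siRNAs in SNB19. In SF539 it read 6.22 and 7.02 with scramble and 4.54 to 4.98 with the PARK2 siRNAs. It fell in both lines, by 1.39 and by 1.88, with a line difference of -0.49 (95% interval -1.20 to 0.21). Both intervals are wide and the SNB19 values with the PARK2 siRNAs were at or near background, so like effects of CXCL11 or of IFNB1 in the 2 lines were not shown.

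Genes of antigen presentation fell mostly in SNB19. Of 14 measured genes, 12 had a called positive line difference and none a negative one, beside 10.8% and 8.3% of all genes, with median effects of -2.24 in SNB19 and -0.22 in SF539. TAP1, which carries peptides into the endoplasmic reticulum, had a line difference of 3.27 ± 0.13, HLA-B 2.47 ± 0.11 and HLA-E 2.33 ± 0.11. HLA-B, for example, read 13.57 and 13.50 with scramble in SNB19 and 10.60 to 11.06 with the PARK2 siRNAs, against 13.12 to 13.48 on all SF539 arrays. Near-identical HLA genes can share probes. UBE2L6, the conjugating enzyme for ISG15, had a line difference of 4.08 (11.45 and 11.28 with scramble in SNB19, 6.84 to 7.0 with the PARK2 siRNAs, and 10.65 to 11.05 in SF539), while 3 of the 30 proteasome and ubiquitin genes (10.0%) had a called line difference (1 to 9 when single arrays were left out).

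**Figure D2:**
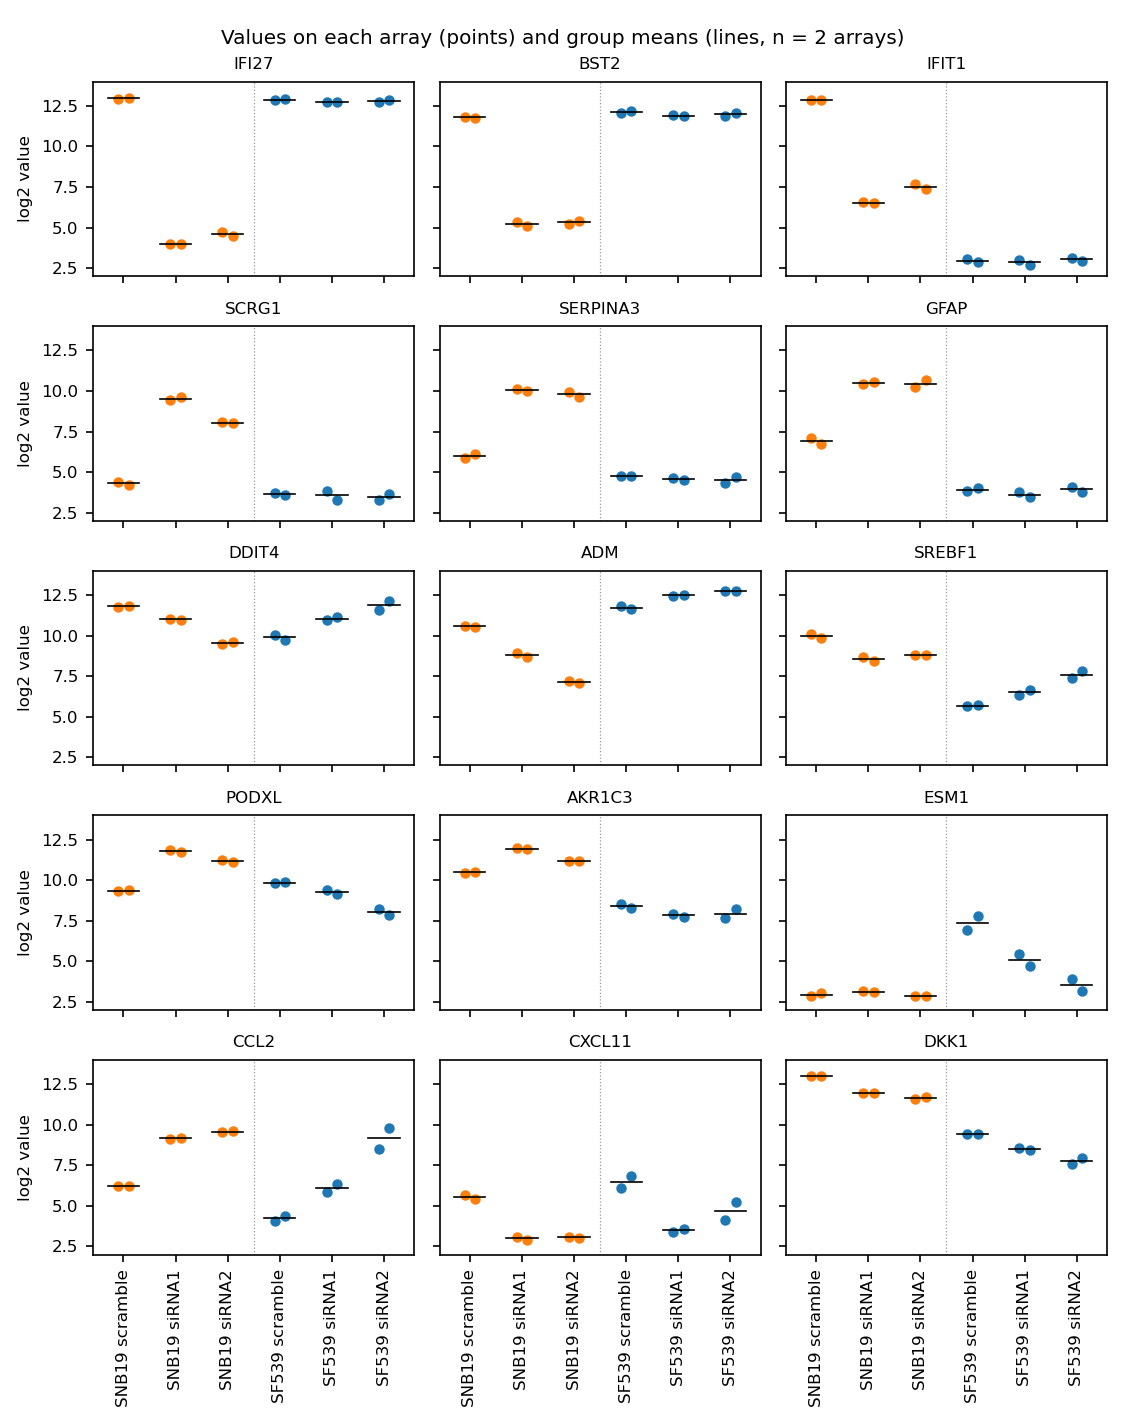
Log2 values of 15 genes on each of the 12 arrays (points, replicate 1 left of replicate 2) with the mean of each group of 2 arrays (line), SNB19 in orange and SF539 in blue. IFI27 and BST2 are low on the 4 PARK2 siRNA arrays of SNB19 alone, SCRG1 and GFAP are raised there, DDIT4, ADM and SREBF1 move in opposite directions, and CXCL11 and DKK1 fall in both lines.

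Of the 10 largest negative line differences, 4 belonged to glial lineage genes. The glial list was chosen with earlier results of these data known, so this overlap is only a description. Of 21 measured glial genes, 10 had a called negative line difference and none a positive one, beside 8.3% and 10.8% of all genes. In SNB19 8 rose and 2 fell, and in SF539 none rose and 2 fell, beside 15.5% of all genes called higher in SNB19. The median line difference was -0.52. SCRG1, an astrocyte and mesenchymal stem cell protein, read 4.39 and 4.22 with scramble in SNB19, 9.44 and 9.61 with siRNA1 and 8.08 and 8.0 with siRNA2, and 3.30 to 3.86 in SF539. Its line difference was -4.60 ± 0.22 (adjusted p = 5.24e-07).

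GFAP, the intermediate filament of astrocytes, read 7.08 and 6.72 with scramble in SNB19 and 10.24 to 10.68 with the PARK2 siRNAs, against 3.48 to 4.10 in SF539, giving a line difference of -3.72 ± 0.22. A second GFAP probe set gave 0.03. CRYAB, a small heat shock protein, read 7.66 and 7.63 with scramble in SNB19 and 10.36 to 11.27 with the PARK2 siRNAs, against 4.08 to 4.38 in SF539 (line difference -3.07 ± 0.13). SPARCL1, a matrix protein secreted by astrocytes, had a line difference of -2.71 ± 0.22. All 4 genes lay near or below the lower quartile in SF539 with each siRNA. EDNRB, FABP7 and S100B, other glial genes named after their values were seen, had line differences of -2.48, -1.58 and -1.27.

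Other genes that rose in SNB19 were likewise at low values in SF539. SERPINA3, a protease inhibitor of the acute phase, read 5.85 and 6.10 with scramble and 9.63 to 10.11 with the PARK2 siRNAs in SNB19, and 4.35 to 4.76 in SF539 (line difference -4.14 ± 0.18). MMP7, a matrix protease, rose from 6.58 and 6.43 to between 9.08 and 9.83 in SNB19 and read 3.46 to 4.49 in SF539. For MTSS1, an actin-binding scaffold, the 4 probe sets gave line differences from -2.79 to 0.09.

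ESM1 showed the reverse arrangement. This endothelial proteoglycan read 6.92 and 7.78 with scramble in SF539, 5.47 and 4.70 with siRNA1 and 3.90 and 3.20 with siRNA2, while SNB19 read 2.84 to 3.15 throughout. It fell by 3.04 in SF539, and the line difference was -3.07 ± 0.39 (adjusted p = 0.000562). All SNB19 arrays and the SF539 siRNA2 arrays were below the lower quartile, so a fall in SNB19 could not have been seen and that in SF539 is limited by background. COL3A1, a fibrillar collagen, read 9.70 and 9.70 with scramble in SF539, 10.85 and 11.21 with siRNA1 and 12.39 and 13.40 with siRNA2, against 2.99 to 3.68 in SNB19. Its line difference was 2.35 ± 0.37, and its 4 probe sets ranged from 0.26 to 3.02. MATN2, an adaptor protein of the matrix, had a line difference of 2.53, VCAM1, a leukocyte adhesion molecule, 2.76, and CCN4, a matricellular protein, 2.31. CCL20, a chemokine, fell by 1.65 in SF539 and had a line difference of -1.47.

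The matrix list as a whole held both directions, with 5 positive and 4 negative of 28 genes (32.1% called, against 19.1% of all genes), and its count rested on single arrays. The sum of both was 22 without SF539 siRNA2 replicate 1 and 17 without replicate 2, 5 without SF539 scramble replicate 2, and 4 without SNB19 scramble replicate 1. With siRNA1 alone 9 were positive and 5 negative, and the median moved from 0.44 to -0.03.

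Hypoxia-induced genes fell in SNB19, and a smaller number of them rose in SF539. Of 17 measured genes, 15 had a called positive line difference and none a negative one, beside 10.8% and 8.3% of all genes, with a median of 1.38. In SNB19 14 fell and 1 rose (median -0.90), and in SF539 5 rose and none fell (median 0.35), beside 5.80% of all genes called higher there. The 5 that moved in opposite directions were ADM, DDIT4, STC1, BNIP3 and P4HA1.

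ADM, the vasodilator adrenomedullin, read 10.60 and 10.54 with scramble in SNB19, 8.93 and 8.69 with siRNA1 and 7.22 and 7.09 with siRNA2. The SF539 values were 11.80 and 11.63 with scramble, 12.45 and 12.52 with siRNA1 and 12.74 and 12.72 with siRNA2. All PARK2 siRNA arrays were below scramble in SNB19 and above it in SF539, and the line difference was 3.48 ± 0.13 (adjusted p = 1.09e-07). It was 2.53 for siRNA1 and 4.43 for siRNA2.

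DDIT4, an inhibitor of the growth kinase mTORC1 that hypoxia and other stresses induce, read 11.79 and 11.83 with scramble in SNB19, 11.05 and 10.98 with siRNA1 and 9.46 and 9.61 with siRNA2. On SF539 arrays it stood at 10.02 and 9.75 with scramble, 10.95 and 11.14 with siRNA1 and 11.60 and 12.16 with siRNA2. The effects were -1.54 ± 0.15 and 1.58 ± 0.15 (adjusted p = 3.46e-05 and 0.000303).

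BNIP3, a mitochondrial protein that recruits the autophagy machinery, fell by 0.90 in SNB19 and rose by 0.77 in SF539. It read 12.32 and 12.34 with scramble in SNB19, 11.92 and 11.94 with siRNA1 and 10.90 and 10.98 with siRNA2, and 10.23 and 10.16 with scramble in SF539, 10.69 and 10.80 with siRNA1 and 11.14 and 11.24 with siRNA2. For ADM, DDIT4 and BNIP3 the siRNA2 arrays lay further from scramble than the siRNA1 arrays in each line, and for 10 of the 17 genes the line difference differed between the siRNAs (called for 3.34% of all genes). The median line difference of the group was 0.83 for siRNA1 and 1.83 for siRNA2. VEGFA, the growth factor of blood vessels, fell by 1.41 in SNB19 and had an effect of 0.00 in SF539.

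Of 19 glycolysis genes, 8 had a called positive line difference and none a negative one, beside 10.8% and 8.3% of all genes (median 0.38). The count was 5 without SF539 scramble replicate 2 and 4 and 5 without SNB19 scramble replicate 1 and 2, and 4 with median centring or with siRNA1 alone. HK2, a hexokinase abundant in tumours, fell from 10.72 and 10.64 to 9.78 and 9.91 with siRNA1 and 8.35 and 8.50 with siRNA2 in SNB19. In SF539 it rose from 10.14 and 10.30 to 10.57 and 10.58 with siRNA1 and 10.87 and 11.16 with siRNA2. SLC2A1, the glucose transporter GLUT1, fell by 0.86 in SNB19 and rose by 0.85 in SF539 (line difference 1.71 ± 0.12, adjusted p = 8.82e-06). PFKP and ENO2, enzymes of the pathway, had line differences of 0.77 and 1.21, and that of ENO2 was 0.43 with siRNA1 alone (adjusted p = 0.0738).

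SREBF1, the transcription factor that drives fatty acid synthesis, read 10.08 and 9.86 with scramble in SNB19 and 8.43 to 8.80 with the PARK2 siRNAs. The SF539 arrays read 5.65 and 5.70 with scramble, 6.37 and 6.67 with siRNA1 and 7.37 and 7.81 with siRNA2. Its effects were -1.30 ± 0.14 and 1.38 ± 0.14, and no PARK2 siRNA array overlapped with the scramble arrays of its line. Of the 22 measured genes of cholesterol and fatty acid synthesis, 13 rose in SF539 (5.8% of all genes) and 6 in SNB19 (15.5% of all genes). A positive line difference was called for 8, against 10.8% of all genes (4 without SF539 scramble replicate 2, and 3 and 4 without SNB19 scramble replicate 1 and 2). SCD, the desaturase that makes oleic acid, rose in both lines, by 0.58 in SNB19 and by 2.06 in SF539, and INSIG1, which retains the sterol sensor in the endoplasmic reticulum, rose by 0.88 in SF539 with an effect of 0.01 in SNB19.

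Of 23 ATF4 targets and genes of amino acid supply, 14 fell in SNB19 and 2 in SF539, beside 17.4% and 4.01% of all genes. A positive line difference was called for 10, beside 10.8% of all genes (6 without SNB19 scramble replicate 1). DDIT3, the stress transcription factor CHOP, fell by 2.42 in SNB19 and by 0.29 in SF539. SLC7A5, a transporter of large neutral amino acids, fell from 11.22 and 11.12 to between 9.11 and 9.30 in SNB19. In SF539 it read 10.39 and 10.25 with scramble, 10.13 and 10.34 with siRNA1 and 11.03 and 11.19 with siRNA2, so the arrays above scramble were those with siRNA2 (effect 0.35). STC2, a secreted glycoprotein, had a line difference of 2.87, and SLC3A2, the partner of SLC7A5, 1.44. The median of the list was 0.44 over both siRNAs and -0.05 for siRNA1.

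Further genes that fell in SNB19 and rose in SF539 by the largest amounts in both were LRRC17, SDC2, MTUS1 and DBP. LRRC17, a secreted leucine-rich repeat protein, read 6.80 and 6.76 with scramble and 4.89 to 5.31 with the PARK2 siRNAs in SNB19, and 7.15 and 7.16 with scramble and 8.0 to 9.58 in SF539 (line difference 3.12 ± 0.27). SDC2, a cell surface heparan sulphate proteoglycan, had effects of -1.18 and 1.20, and its 3 probe sets ranged from 1.99 to 2.39 in the line difference. MTUS1, a microtubule-associated protein, had effects of -1.02 and 1.06. DBP, a transcription factor of the circadian output, had effects of -1.02 and 0.96, and its other probe set gave a line difference of -0.17.

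The reverse kind was rarer on the deposited values, with 27 genes (0.316% of those tested). Its share of the opposite-moving genes was 26.0% as deposited, 36.8% with quantile normalization and 46.7% with median centring. PODXL, a sialylated membrane protein, read 9.31 and 9.40 with scramble in SNB19, 11.88 and 11.76 with siRNA1 and 11.22 and 11.14 with siRNA2. SF539 gave 9.80 and 9.91 with scramble, 9.38 and 9.15 with siRNA1 and 8.23 and 7.84 with siRNA2. Its effects were 2.15 ± 0.12 and -1.20 ± 0.12 (line difference -3.35 ± 0.16, adjusted p = 6.47e-07). ODC1, the first enzyme of polyamine synthesis, rose by 0.74 in SNB19 and fell by 0.78 in SF539. RP2, a protein of ciliary trafficking, had effects of 0.85 and -0.63, and FSTL3, an inhibitor of activin, 0.77 and -0.61.

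AKR1C1, AKR1C2 and AKR1C3, reductases of steroids and aldehydes and known targets of the oxidative stress factor NRF2, also belonged to this kind. AKR1C3 read 10.45 and 10.52 with scramble in SNB19, 12.01 and 11.89 with siRNA1 and 11.17 and 11.17 with siRNA2, and in SF539 8.54 and 8.31 with scramble and 7.64 to 8.23 with the PARK2 siRNAs. The effects were 1.08 and -0.55, with -0.73 and -0.94 for AKR1C2 and AKR1C1 in SF539. For AKR1C2 the siRNA2 arrays of SNB19, 9.20 and 8.96, overlapped with scramble at 9.0 and 9.01, and for AKR1C1 they read 9.70 and 9.45 against 9.74 and 9.87 with scramble. The 3 genes are near-identical in sequence and are not independent measurements. Of 20 NRF2 targets, 2 had a positive and 5 a negative called line difference (35.0% called, against 19.1% of all genes), 13 in all without SF539 siRNA2 replicate 1 and 11 without replicate 2, with median centring or without the dimmest 40% of genes.

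The genes that moved together most strongly included CCL2, a chemokine for monocytes. It read 6.25 and 6.25 with scramble in SNB19 and 9.12 to 9.59 with the PARK2 siRNAs, and in SF539 4.08 and 4.39 with scramble, 5.86 and 6.35 with siRNA1 and 8.52 and 9.82 with siRNA2. The effects were 3.11 ± 0.29 and 3.40 ± 0.29, and the line difference of 0.29 had a 95% interval from -0.62 to 1.20. The line difference moved from -1.04 with siRNA1 to 1.62 with siRNA2 (adjusted p = 0.0169 for the difference), so the mean hides a dependence on the siRNA. DCLK1, a microtubule-linked kinase, had effects of 1.62 and 1.33, with a line difference of -1.09 for siRNA1 and 0.52 for siRNA2.

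ANKRD46, a membrane protein with ankyrin repeats, had effects of 1.21 and 1.04 with a line difference of -0.17 (95% interval -0.48 to 0.15). MYLK, the kinase of myosin light chain, rose by 1.94 and by 1.02, and here the difference was called (-0.91 ± 0.15, adjusted p = 0.00277). GYG2, which starts glycogen chains, rose by 1.03 and by 1.29. LIMCH1, OLFML2A and PCYOX1 rose in both lines by 1.22 and 1.44, 1.94 and 1.16, and 1.20 and 1.09. For PCYOX1 the call in SNB19 was lost without SNB19 scramble replicate 2 (effect 1.11). The call in SF539 was lost for OLFML2A without either SF539 scramble array (adjusted p = 0.0822 and 0.0577) and with siRNA1 alone (0.138), for LIMCH1 with siRNA1 alone (adjusted p = 0.0732), and for PCYOX1 without SF539 scramble replicate 1 (effect 0.44, adjusted p = 0.199) and without most other arrays.

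DKK1, an inhibitor of Wnt signalling, fell by 1.18 in SNB19 and by 1.29 in SF539 from far different levels. It read 12.98 and 12.98 with scramble in SNB19 and 11.58 to 11.98 with the PARK2 siRNAs, and 9.41 and 9.45 with scramble in SF539 and 7.59 to 8.54 with the PARK2 siRNAs. The line difference was -0.11 (95% interval -0.42 to 0.21). CTSS, a lysosomal protease of antigen processing, fell by 2.19 and by 1.31, with a called difference of 0.88 that was lost with the mean of its 2 probe sets (0.53, adjusted p = 0.116). CXCL8, a chemokine for neutrophils, fell by 1.41 and by 1.55, but its 2 probe sets gave line differences of -0.14 and -1.99.

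**Figure D3:**
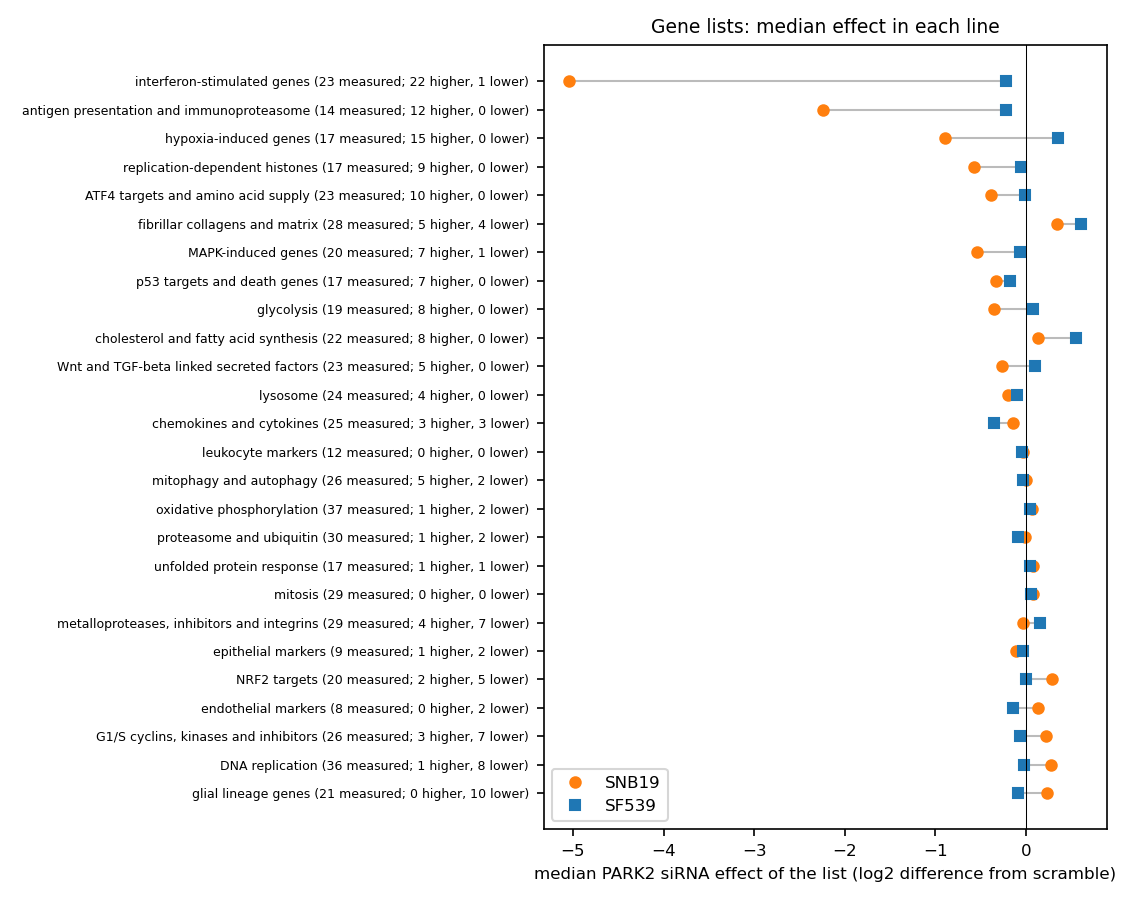
Median PARK2 siRNA effect (log2 difference from scramble) of the measured members of each gene list in SNB19 (circles) and SF539 (squares), with the number measured and how many had a called positive (higher) or negative (lower) line difference. The interferon list spans -5.04 to -0.22 and the hypoxia list crosses 0, from -0.90 to 0.35, while the mitosis and leukocyte lists have both medians near 0 and no called member.

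Of 17 p53 targets and death genes, 7 had a called positive line difference and none a negative one, beside 10.8% and 8.3% of all genes. FAS, the death receptor, read 8.77 and 8.72 with scramble and 6.70 to 7.20 with the PARK2 siRNAs in SNB19 and 3.08 to 3.58 in SF539. All SF539 values of FAS lay below the lower quartile, so a fall there could not have been seen. CDKN1A, the cell cycle inhibitor p21, fell by 1.41 in SNB19 and by 0.65 in SF539, and GADD45A, a stress sensor, by 1.11 and by 0.39. Of 20 genes induced by MAPK signalling, 12 fell in SNB19 and 3 in SF539, beside 17.4% and 4.01% of all genes. A line difference was called for 40%, against 19.1% of all genes, 7 positive and 1 negative (12 positive and 1 negative without SF539 siRNA2 replicate 1, and 5 in all with the mean of probe sets). SPRY1, a feedback inhibitor of growth factor signalling, had a line difference of 2.73, and the phosphatase gene DUSP4 1.25. CCND1, cyclin D1, was the negative member, with a fall of 1.09 in SF539 and an effect of 0.18 in SNB19, and its call was lost with the mean of its probe sets (adjusted p = 0.0582).

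Of 17 replication-dependent histone genes, 11 fell in SNB19 (17.4% of all genes) and 9 had a called positive line difference (10.8% of all genes). Without the dimmest 40% of genes 6 were left, of which 5 were called. The line difference was 3.73 for H2AC6, 3.63 for H2BC21, 2.41 for H2BC12 and 2.27 for H1-2. H2BC21 read 7.75 and 7.89 with scramble and 4.45 to 5.66 with the PARK2 siRNAs in SNB19, and 4.50 and 4.07 with scramble and 4.51 to 5.93 with the PARK2 siRNAs in SF539. Histone genes are near-identical and can share probes. Of 36 DNA replication genes, 11 rose in SNB19 and 1 in SF539, beside 15.5% and 5.8% of all genes. A line difference was called for 25%, against 19.1% of all genes. Of the 36, 8 were negative and 1 positive, beside 8.3% and 10.8% of all genes. RFC5, a clamp loader subunit, had a line difference of -1.05, and the helicase subunit MCM6 rose in both lines, by 1.26 and by 0.51. The summed count was 27 without SF539 siRNA2 replicate 1, 14 without replicate 2, 5 without SF539 scramble replicate 2 and 5 without SNB19 scramble replicate 2, and 14 with siRNA1 alone. Of 29 mitosis genes none was called, and KIF23 and MAD2L1 had the smallest p-values (adjusted p = 0.0707 and 0.0751). At an unadjusted p under 0.05, limma gave 3 negative and 0 positive. The mitosis list too depended on single arrays. Its median line difference was -0.06 with all arrays, -0.30 without SF539 siRNA2 replicate 1 and 0.14 without SF539 siRNA2 replicate 2.

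Of 26 mitophagy and autophagy genes, the pathway that parkin belongs to, 5 had a called positive and 2 a negative line difference. That is 26.9%, near the 19.1% of all genes. The sum was 13 in all without SF539 siRNA2 replicate 1 and 3 without SNB19 scramble replicate 1. BNIP3, described above, was the largest of them. TOMM20, a receptor for protein import into mitochondria, rose by 0.70 in SNB19 with an effect of 0.09 in SF539 (adjusted p = 0.0025 for the difference). PINK1 read 8.06 and 8.08 with scramble in SNB19, 8.71 and 8.50 with siRNA1 and 8.21 and 8.21 with siRNA2. Its SF539 values were 8.96 and 8.79 with scramble, 8.81 and 8.72 with siRNA1 and 8.31 and 7.87 with siRNA2. Its line difference was -0.78 ± 0.17 (adjusted p = 0.0101), with a fall of 0.45 in SF539 and an effect of 0.34 in SNB19 (adjusted p = 0.053). Of 37 oxidative phosphorylation genes, 1 was positive and 2 negative (8.11%), and the sum was 0 to 7 when single arrays were left out.

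The line difference depended on the siRNA for 285 genes (3.34% of those tested, 179 or 2.09% larger and 106 or 1.24% smaller with siRNA2). Both siRNA estimates share the scramble arrays. The size of their difference does not use these arrays, but its SE and p-value rest on a spread that includes them. The count was 2203 without SF539 siRNA2 replicate 1, 181 without either SNB19 scramble array, and 77 to 121 without any 1 array of the SNB19 siRNA1, SNB19 siRNA2 or SF539 siRNA1 groups. AKR1B10, an aldose reductase, read 8.34 and 8.40 with scramble in SNB19, 10.64 and 10.18 with siRNA1 and 7.17 and 6.89 with siRNA2, against 4.71 to 5.44 in SF539. The siRNAs thus moved it in opposite directions in SNB19, and the line difference was -1.81 with siRNA1 and 1.45 with siRNA2 (adjusted p = 0.00051 for the difference). CD180, a receptor of the Toll-like family, had the same pattern, with 7.03 and 7.09 with scramble in SNB19, 9.01 and 8.83 with siRNA1 and 6.14 and 6.03 with siRNA2.

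TIMP3, an inhibitor of matrix proteases, read 10.13 and 9.93 with scramble in SF539, 10.76 and 10.83 with siRNA1 and 12.07 and 12.78 with siRNA2, and its line difference was 0.12 with siRNA1 and 3.14 with siRNA2. MMP1, a collagenase, read 5.47 and 5.78 with scramble in SF539, 6.13 and 5.57 with siRNA1 and 3.17 and 3.06 with siRNA2, against 2.61 to 2.98 in SNB19. PLN, a regulator of the calcium pump, read 6.80 and 6.74 with siRNA2 in SNB19 and 3.38 to 4.36 with scramble or siRNA1. CXCL8 gave 1.02 with siRNA1 and -1.29 with siRNA2. For CEMIP, a hyaluronan-degrading protein, the SF539 siRNA2 arrays read 7.94 and 10.89, and the call (difference 4.57 ± 1.00, adjusted p = 0.0424) was lost without any 1 of the 10 arrays of the other groups (adjusted p from 0.0627 to 0.153). IL11, a cytokine, differed by -2.70, and its call was lost without any 1 array of the SNB19 siRNA1, SNB19 siRNA2 or SF539 siRNA1 groups (adjusted p from 0.0717 to 0.0973).

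**Figure D4:**
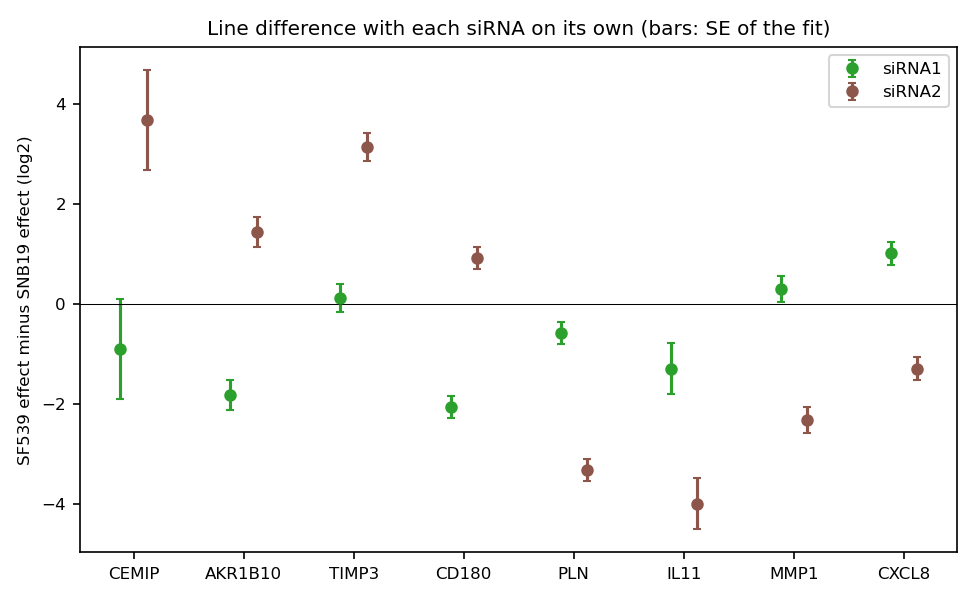
Line difference (SF539 effect minus SNB19 effect, log2, with the SE of the fit as bars) of 8 genes for siRNA1 and siRNA2 separately. The estimates of CEMIP, AKR1B10, CD180, MMP1 and CXCL8 lie on opposite sides of 0 for the siRNAs, and TIMP3 is at 0.12 and 3.14.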

How the data were processed

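RNA was extracted with RNeasy Plus Mini kits, labelled with biotin and hybridised to Affymetrix human arrays, per the labels' protocols. The authors deposited log2 values for 16376 probe sets on 12 arrays. Partek is named in the submitters' processing notes, and no source used here gives the background correction or the normalization. Probe sets were named from GEO's platform annotation: 14038 had 1 gene, 792 several and 1546 none, and 14028 were matched through Entrez identifiers. Each of 8545 genes was represented by its brightest probe set.

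A model with 6 group means was fitted with limma 3.58.1 in R 4.3.3 (two-sided; degrees of freedom 6 residual, 3.65 from the prior), with Benjamini-Hochberg adjustment over 8545 genes at 0.05. "Dim" or "below the lower quartile" compares a gene with the lower quartile of the same array. On simulated data for the line difference over 8545 genes, the share recovered was 31.3% at 1.5-fold (67 genes), 83.6% at 2-fold (67) and 93.9% at 4-fold (66), with 7 false among 146 calls. The simulated noise was normal with 1 SD per gene in every group. The SF539 siRNA2 pair spread more widely than the others, so these shares may not hold for the real arrays. Promoters came from RefSeq, and tables and figures were made with Python 3.11.15, pandas 2.3.3 and matplotlib 3.10.9.

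Genes were named by rank: the 10 largest called line differences each way, 6 genes of each opposite orientation, 8 that rose and 8 that fell in both lines (all with 1 sign for both siRNAs), 4 each way for the siRNA difference, and up to 4 of each gene list by p-value. Genes named outside these ranks (IRF7, OASL, TRIM22, P4HA1, VEGFA, CDKN1A, EDNRB, FABP7 and S100B) were chosen after their values were seen. The members and lists were chosen with earlier results of these data known. Alternatives were quantile normalization, median centring, leaving out dim genes, other uses of probe sets, another prior, array weights, a 1.5-fold minimum, a replicate block, each array left out and, added after seeing the data, siRNA1 alone. Replicate numbers were not used as pairs in the main model.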

Additional observations from a re-analysis of the deposited data

Results flagged for a closer look

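Results in this paragraph are those in which the response differed between the lines by the test of the difference itself, or in which that difference differed between the siRNAs. Groups held 2 arrays, so no array was tested as standing apart within its group. The line difference was called for 1629 genes and its dependence on the siRNA for 285. Among the named genes it was positive for the interferon-linked IFI27 (8.54), BST2 (6.35), MX1 (6.28), IFIT3 (6.12), IFIT1 (5.81), IFITM1 (5.73), PSMB9 (5.65), OAS1 (5.64), IFI44L (5.38) and ISG15 (5.04). It was negative for SCRG1 (-4.60), SERPINA3 (-4.14), GFAP (-3.72), PODXL (-3.35), ESM1 (-3.07), CRYAB (-3.07), MTSS1 (-2.79), SPARCL1 (-2.71), MMP7 (-2.68) and IL11 (-2.64). Genes that fell in SNB19 and rose in SF539 were LRRC17 (3.12), DDIT4 (3.11), SREBF1 (2.68), SDC2 (2.39), MTUS1 (2.08) and DBP (1.98), and the reverse held for AKR1C3 (-1.63), AKR1C2 (-1.53), ODC1 (-1.52), RP2 (-1.48) and FSTL3 (-1.38). The line difference with siRNA2 minus that with siRNA1 was 4.57 for CEMIP, 3.25 for AKR1B10, 3.01 for TIMP3, 2.98 for CD180, -2.75 for PLN, -2.70 for IL11, -2.62 for MMP1 and -2.31 for CXCL8.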

How the results depend on the processing

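Of 159 tests of named genes, 121 kept their direction and side of the threshold under every alternative that gave them a value, 38 did not under at least 1, and 0 reversed. With the 1.5-fold minimum, calls numbered 1186 for the effect in SNB19, 319 for SF539, 1045 for the line difference, 2628 for the line difference with scramble, 39 for opposite and 88 for the same direction. With every probe set tested on its own there were 1330 in SF539, 6417 with scramble and 569 in the same direction. The trended robust prior gave 429 for the siRNA difference. Array weights gave 1838 for the siRNA1 line difference and 1278 for the siRNA2 line difference. With 1 array left out, counts ran from 1741 to 3551 for SNB19, 371 to 1973 for SF539, 952 to 2686 for the line difference, 615 to 1947 for it with siRNA1, 1003 to 2887 with siRNA2, 77 to 2203 for the siRNA difference, 3438 to 4694 with scramble, 56 to 363 for opposite and 174 to 844 for the same direction. A group left with 1 array was assumed to vary like the others. The replicate block gave 1426 called line differences, 86 opposite and 281 in the same direction. Deviations of equally numbered arrays correlated with r from 0.012 to 0.109 in SNB19 and from -0.18 to 0.054 in SF539. With 2 arrays in a group these values cannot settle whether equally numbered arrays share a culture or run, which was not tested. With siRNA1 alone, 1779 line differences were called, 1233 of them among the 1629 with 1 sign. The cause of these changes was not tested. Genes near the lower quartile carry little signal over background, which limits falls from there.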

Other observations

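Secreted and surface genes outside the groups described above held both directions. Counts are read against the 19.1% of all genes with a called line difference, of which 10.8% were positive and 8.3% negative as shares of all genes. Of 25 chemokines and cytokines, 3 had a called positive and 3 a negative line difference (24.0%), 10 in all with array weights or with siRNA1 alone and 11 with median centring, and 14 and 11 without SF539 siRNA2 replicate 1 and 2. Of 23 Wnt and TGF-beta linked secreted factors, 5 were positive and none negative (21.7%), with sums from 2 to 11 when single arrays were left out. Of 29 metalloproteases, inhibitors and integrins, 4 were positive and 7 negative (37.9%), with sums from 7 to 21. Of 24 lysosome genes, 4 were positive and none negative (16.7%), with 7 called without SF539 siRNA2 replicate 1 and 8 without replicate 2 or with siRNA1 alone. Of 26 genes of G1/S control, 3 were positive and 7 negative (38.5%). Array weights gave 5 positive and 8 negative, and the mean of probe sets 4 and 5. Their median line difference was -0.23, and -0.26 to -0.08 when single arrays were left out. Of 17 genes of the unfolded protein response, 1 was positive and 1 negative (11.8%), and the sum was 4 without SF539 siRNA2 replicate 2 and 1 without most other arrays.

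Markers of other cell types were low on average. None of 12 leukocyte markers was called by limma, and 1 was at an unadjusted p under 0.05. Of 8 endothelial markers, 2 were negative (25%; KDR and VWF, named after their values were seen), and the list averaged 3.87 to 4.33 on all arrays. Of 9 epithelial markers, 1 was positive and 2 negative (33.3%). Their averages of 4.67 to 4.94 lay above the lower quartiles, and 3 or 4 of the 9 were below them on each array. The part of these markers in the line differences was not tested.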
